A study of Mus musculus with 4 samples.

Results

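The genes described here are the receptors with which a cell holds and senses its extracellular matrix: 20 integrin chains, dystroglycan (Dag1), 4 syndecans, 6 glypicans and the discoidin receptors Ddr1 and Ddr2. They were chosen by symbol from a list of 33 genes, all of which had a row among the 24428 genes of the count tables. RNA was sequenced from mouse embryonic stem cells of the 129SvEv background. The G784E group carried a V5-tagged Smarca4 allele with the glycine-to-glutamate change G784E, and the WT group carried a wild-type V5-tagged allele. In both groups the other Smarca4 allele was wild type and fused to GFP, so the mutant cells were heterozygous. Smarca4 (BRG1) is the ATPase of the BAF chromatin remodelling complex. Each group had 2 libraries, of cells grown without further treatment in serum and LIF between passages 15 and 20, and the labels do not say whether replicates were separate cultures or clones. The p-values below therefore rest only on how far these libraries differ within a group, and that scatter may be technical.

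Integrins are heterodimers of an alpha and a beta chain, and the pairing sets the ligand. Chains alpha3, alpha6 and alpha7 with beta1, and alpha6 with beta4, bind laminin. Chains alpha1, alpha2, alpha10 and alpha11 with beta1 bind collagen. Chains alpha5 and alpha8 with beta1, and alphaV with several beta chains, bind the arginine-glycine-aspartate (RGD) motif of fibronectin and vitronectin. Dystroglycan is a laminin receptor outside the integrin family, and the discoidin receptors are tyrosine kinases switched on by collagen. Syndecans are transmembrane and glypicans lipid-anchored proteoglycans, whose heparan sulphate chains bind matrix proteins and growth factors. In the early mouse embryo, laminin and type IV collagen form the basement membrane between the endoderm and the epiblast, and laminin receptors containing beta1 are needed there.

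Gene counts summed to 6226145 and 8895433 in the G784E libraries, and to 7027108 and 10083442 in the WT libraries. With TMM factors, counts were scaled to CPM, the depth-normalised count of a gene relative to all gene counts of its library, and 1 count was worth 0.102 to 0.164 CPM. Smarca4, for which the table does not separate the alleles, stood at 3868 and 3580 CPM in G784E libraries and 2423 and 2553 CPM in WT libraries (log2 fold change 0.58, adjusted p = 0.119 by edgeR's quasi-likelihood test with Benjamini-Hochberg adjustment). The 12 pluripotent stem cell markers on a fixed list summed to 4221 and 4189 CPM in G784E libraries, and to 3373 and 3891 CPM in WT libraries. In both groups replicate 1 stood apart from replicate 2: 1125 olfactory receptor genes summed to 698 CPM in replicate 1 and 296 CPM in replicate 2 of G784E, and to 635 and 197 CPM in replicates 1 and 2 of WT. Of the receptor genes, 11 had more in replicate 1 than in replicate 2 of both groups, as did 32.9% of all tested genes. They include 7 of the 8 with a mean under 5 CPM, and Itgb3 among the others.

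Of the 33 receptor genes, 31 had enough counts to be tested, and 6 fell in G784E cells while none rose. The 6 were the glypicans Gpc6, Gpc4 and Gpc3, the syndecan Sdc4, and the integrin alpha chains Itgav and Itga3. This is 19.4% of the tested receptor genes, against 1.89% of all 15763 tested genes that were lower and 0.672% that were higher at an adjusted p under 0.05. The median log2 fold change was -0.27 over the 31 genes and -0.00 over all tested genes. At an unadjusted p under 0.05, edgeR's quasi-likelihood test put 7 receptor genes lower and 4 higher. The share of all tested genes at that unadjusted threshold is not given here. Counts at an unadjusted p, for these genes and for the lists below, therefore have no background beside them. By DESeq2 there were 5 lower calls and 1 higher call, beside 2.26% and 0.94% of all its genes. By limma-voom there were 6 and 1, beside 2.31% and 1.18%. The 1 higher gene was the fibronectin receptor chain Itga5 in both. Only Sdc4, Gpc4 and Gpc6, 3 of the 6, passed without WT replicate 1, and likewise without WT replicate 2. Of the 31, 9 lay lower in both G784E libraries than in both WT libraries and 7 lay higher in both. Over all tested genes 19.4% did the one and 19.4% the other. Because these are whole cultures, fewer cells of one type and less RNA per cell cannot be told apart.

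**Figure D1:**
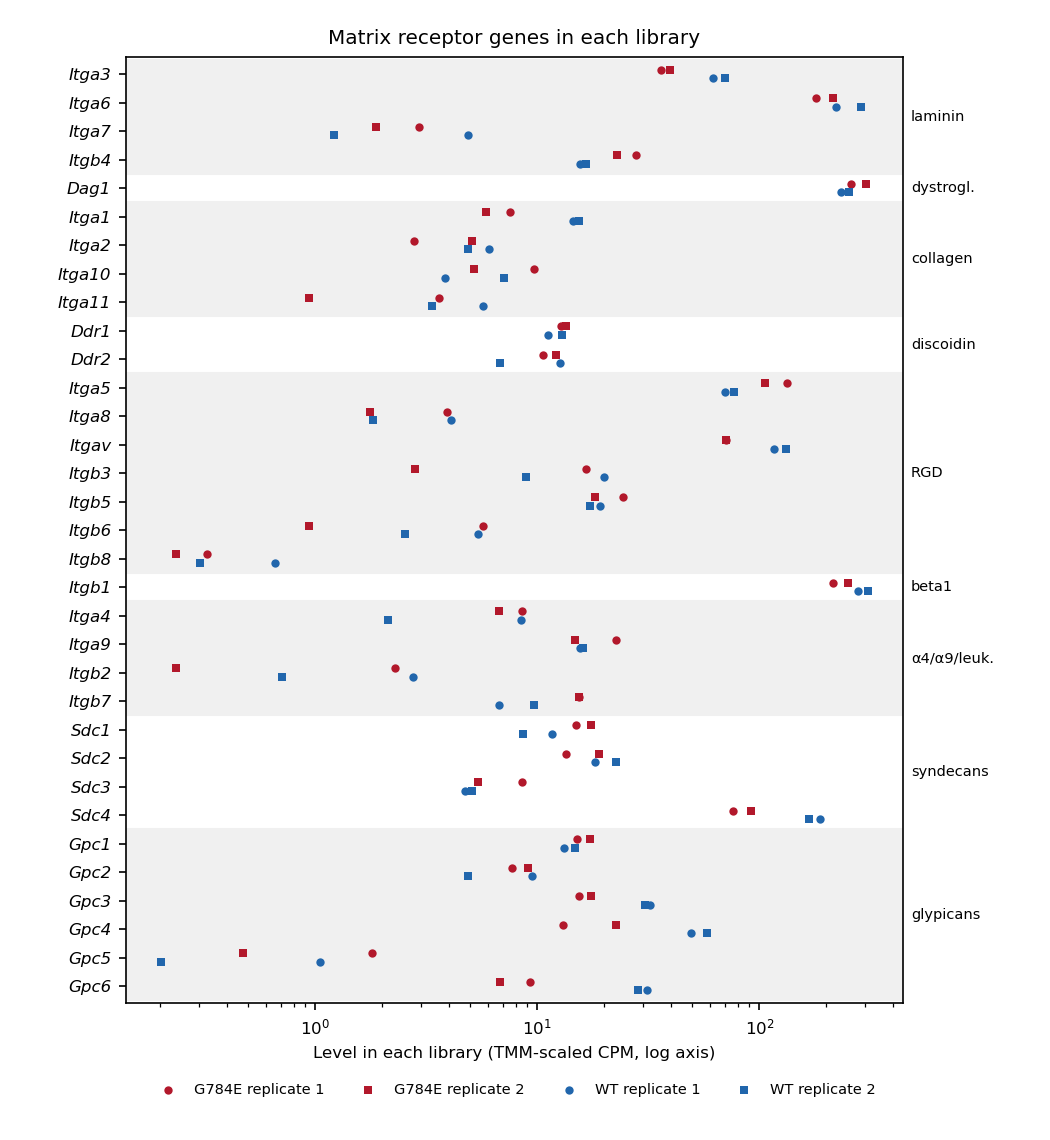
Levels of the 33 receptor genes in each library, in CPM on a log axis, grouped by receptor class; red symbols are G784E and blue symbols WT, circles are replicate 1 and squares replicate 2. For Gpc6, Gpc4, Gpc3, Sdc4, Itgav and Itga3 both red symbols lie left of both blue symbols, with a clear gap.

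Glypicans held the largest falls. Gpc6, a glypican of mesenchyme and growing bone, was at 9.33 and 6.83 CPM in G784E libraries, against 31.2 and 28.3 CPM in WT libraries. The groups did not overlap, and Gpc6 was 3.70-fold lower in G784E (log2 fold change -1.89, SE 0.28, adjusted p = 0.000173, edgeR). Gpc4, which binds FGF and Wnt ligands and is used as a surface marker of embryonic stem cells, was at 13.1 and 22.6 CPM in G784E libraries, against 49.3 and 58.0 CPM in WT libraries. The G784E libraries differed more from each other than the WT libraries did, and both lay below either WT library. The fall was 2.97-fold (log2 fold change -1.57, SE 0.26, adjusted p = 0.000472, edgeR).

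Gpc3, a restrainer of growth whose human loss causes Simpson-Golabi-Behmel overgrowth, was at 15.4 and 17.4 CPM in G784E libraries, against 32.4 and 30.5 CPM in WT libraries. Its replicates lay close together and the groups were apart by 1.91-fold (log2 fold change -0.93, SE 0.25, adjusted p = 0.0411, edgeR). This call was lost, with the direction kept, without G784E replicate 1 (adjusted p = 0.0633), without WT replicate 1 (0.426), without WT replicate 2 (0.214), in DESeq2 (0.103) and with RLE scaling (0.0512). Gpc1, at 15.1 and 17.3 CPM in G784E libraries and 13.2 and 14.8 CPM in WT libraries, and Gpc2, at 7.69 and 9.07 CPM in G784E libraries and 9.51 and 4.87 CPM in WT libraries, did not pass (log2 fold changes 0.21, SE 0.28, and 0.23, SE 0.42). Gpc5 was too low to test, with 11 and 4 counts in G784E libraries and 8 and 2 counts in WT libraries. Glypican transcripts summed to 62.3 and 73.7 CPM in G784E libraries and to 137 CPM in each WT library, a ratio of 0.498.

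Sdc4 was the syndecan with the highest level per kilobase in both groups. This proteoglycan acts with integrin alpha5beta1 in the assembly of focal adhesions on fibronectin. It was at 75.8 and 91.6 CPM in G784E libraries, against 187 and 168 CPM in WT libraries, 2.12-fold lower in G784E (log2 fold change -1.08, SE 0.20, adjusted p = 0.00251, edgeR). No value of one group came near the other. The other syndecans did not pass: Sdc2 was at 13.4 and 19.0 CPM in G784E libraries and 18.2 and 22.6 CPM in WT libraries (log2 fold change -0.33, SE 0.28). Sdc1, the syndecan typical of epithelia, had 14.9 and 17.6 CPM in G784E libraries and 11.6 and 8.63 CPM in WT libraries (0.69, SE 0.31, adjusted p = 0.37). Sdc3, known from nerve and muscle, had 8.51 and 5.42 CPM in G784E libraries and 4.75 and 5.08 CPM in WT libraries (0.49, SE 0.50). For Sdc1 and Sdc3 both G784E libraries lay above both WT libraries, as for 19.4% of all tested genes. Sdc4 was thus the only syndecan with a call.

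Of the RGD-binding integrin chains, 1 of 6 tested genes fell, Itgav, the alphaV chain of the vitronectin receptors. It was at 70.7 and 70.4 CPM in G784E libraries, against 116 and 131 CPM in WT libraries. The G784E replicates were nearly equal, and the gene was 1.76-fold lower in G784E (log2 fold change -0.81, SE 0.20, adjusted p = 0.0256, edgeR). The adjusted p was 0.101 without WT replicate 1 and 0.273 without WT replicate 2. Itga5, the alpha5 chain of the fibronectin receptor, lay the other way, at 133 and 106 CPM in G784E libraries against 70.1 and 76.8 CPM in WT libraries. Both G784E libraries were above both WT libraries, at a 1.63-fold difference that did not pass (log2 fold change 0.70, SE 0.21, adjusted p = 0.078, edgeR). It passed with upper-quartile scaling, by DESeq2 (log2 fold change 0.70, adjusted p = 0.0433), by limma-voom (0.69, 0.023) and without G784E replicate 2 (0.88, 0.00311). Set beside each other per kilobase of exon, Itga5 stood at 4.10 and 3.29 times Itgav in G784E libraries, against 1.31 and 1.27 times in WT libraries, with no overlap between the groups.

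The beta partners of alphaV did not pass the test. Itgb5 was at 24.4 and 18.1 CPM in G784E libraries and 19.1 and 17.3 CPM in WT libraries (log2 fold change 0.22, SE 0.27). Itgb3, the beta chain that alphaV shares with the platelet fibrinogen receptor, was at 16.5 and 2.83 CPM in G784E libraries and 19.9 and 8.93 CPM in WT libraries (-0.60, SE 0.49, adjusted p = 0.79). In both groups Itgb3 was far higher in replicate 1, as were the olfactory receptor genes; without G784E replicate 1 it passed (-2.32, adjusted p = 2.54e-05), and without G784E replicate 2 its sign turned (0.22), so it has no settled direction. The epithelial beta chain Itgb6 was at 5.73 and 0.94 CPM in G784E libraries and 5.41 and 2.54 CPM in WT libraries. Itga8, the alpha chain needed in the budding kidney, was at 3.93 and 1.77 CPM in G784E libraries and 4.09 and 1.83 CPM in WT libraries. Itgb8 was not tested, with 2 and 2 counts in G784E libraries and 5 and 3 counts in WT libraries. Summed over the class, the RGD chains came to 255 and 201 CPM in G784E libraries and 236 and 239 CPM in WT libraries, which overlap.

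Among the laminin receptors, 1 of 4 integrin chains fell, Itga3, which with beta1 binds laminin-332 and laminin-511. It was at 36.2 and 39.7 CPM in G784E libraries, against 62.1 and 70.2 CPM in WT libraries. The groups were well apart, at 1.74-fold lower in G784E (log2 fold change -0.80, SE 0.21, adjusted p = 0.0409, edgeR). The call was lost without G784E replicate 1 (adjusted p = 0.0584), without WT replicate 1 (0.186), without WT replicate 2 (0.397) and with RLE scaling (0.0602). Itga6, the most abundant laminin-binding alpha chain here and a common surface marker of stem cells, was at 180 and 215 CPM in G784E libraries, against 221 and 286 CPM in WT libraries. Both G784E libraries were below both WT libraries, narrowly, and the gene did not pass (-0.36, SE 0.21, adjusted p = 0.562).

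Itgb4, which pairs with alpha6 in hemidesmosomes of epithelia, was at 28.0 and 23.0 CPM in G784E libraries and 15.6 and 16.6 CPM in WT libraries (log2 fold change 0.66, SE 0.26, adjusted p = 0.253). Itga7, the laminin receptor chain of muscle, was at 2.95 and 1.88 CPM in G784E libraries and 4.89 and 1.22 CPM in WT libraries. Dag1, the precursor of both dystroglycan chains, was at 259 and 303 CPM in G784E libraries and 233 and 254 CPM in WT libraries (0.21, SE 0.20, adjusted p = 0.851). Among laminin receptors, then, Itga3 and Itga6 had both G784E libraries below WT, and Itgb4 and Dag1 had both above. Over all tested genes 19.4% lay below in this way and 19.4% above, and of the genes just named only Itga3 passed. The 4 integrin chains summed to 247 and 280 CPM in G784E libraries and to 304 and 374 CPM in WT libraries, a log2 ratio of -0.36.

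None of the 4 collagen-binding alpha chains passed (1 lower and 0 higher at an unadjusted p under 0.05, and 0 by DESeq2 and limma-voom). Itga1 was at 7.53 and 5.89 CPM in G784E libraries, against 14.5 and 15.4 CPM in WT libraries. Its groups were clearly apart, at -1.17 on the log2 scale with an SE of 0.34, and the adjusted p was 0.0711 in edgeR. It passed without G784E replicate 1 (-1.33, adjusted p = 0.0188). Itga2, the chain of the platelet collagen receptor, was at 2.78 and 5.07 CPM in G784E libraries and 6.07 and 4.87 CPM in WT libraries. Itga10, known from cartilage, was at 9.65 and 5.18 CPM in G784E libraries and 3.83 and 7.11 CPM in WT libraries. Both pairs of groups overlapped. Itga11, of fibroblasts, was at 3.60 and 0.94 CPM in G784E libraries and 5.68 and 3.35 CPM in WT libraries, also overlapping. The discoidin receptors did not pass either: Ddr1 was at 12.8 and 13.4 CPM in G784E libraries and 11.2 and 12.9 CPM in WT libraries, and Ddr2 at 10.6 and 12.1 CPM in G784E libraries and 12.7 and 6.80 CPM in WT libraries. The 4 alpha chains summed to 23.6 and 17.1 CPM in G784E libraries and to 30.1 and 30.8 CPM in WT libraries, the lowest sum of the 3 integrin ligand classes in every library.

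Itgb1, the beta1 chain shared by laminin, collagen and fibronectin receptors, was at 214 and 250 CPM in G784E libraries, against 278 and 308 CPM in WT libraries. Both G784E libraries were below both WT libraries, but the difference did not pass (log2 fold change -0.33, SE 0.20, adjusted p = 0.597). The chains known mainly from leukocytes and from VCAM1 or tenascin binding did not pass. Itgb7, a leukocyte beta chain, was at 15.4 CPM in each G784E library and at 6.73 and 9.65 CPM in WT libraries (0.90, SE 0.32, adjusted p = 0.195). Itga9, which binds tenascin, was at 22.6 and 14.8 CPM in G784E libraries and 15.6 and 16.04 CPM in WT libraries, and Itga4 at 8.51 and 6.71 CPM in G784E libraries and 8.45 and 2.13 CPM in WT libraries. Itgb2, the beta chain of most leukocyte integrins, was near the detection floor of 3 counts in the second replicates, at 2.29 and 0.24 CPM in G784E libraries and 2.77 and 0.71 CPM in WT libraries.

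**Figure D2:**
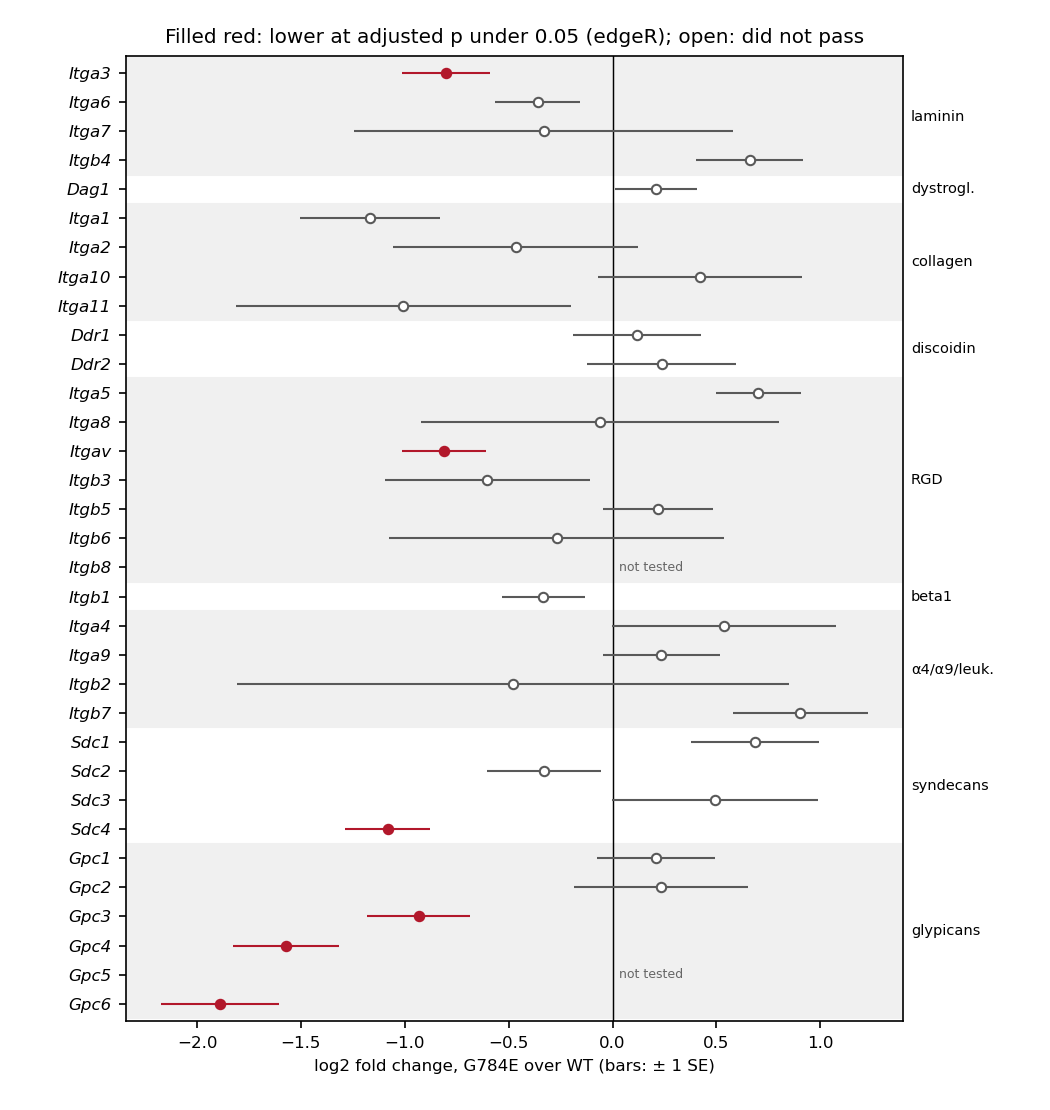
Log2 fold change of G784E over WT for the 31 tested receptor genes, by class, with bars of 1 SE from edgeR; filled red points passed as lower and open points did not pass. Gpc6 lies farthest left at -1.89, and Itgb7 farthest right among the integrins at 0.90.

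The 3 ligand classes of integrins overlapped in their fold changes. The median log2 fold change was -0.35 for laminin-binding chains (range -0.80 to 0.66), -0.74 for collagen-binding chains (-1.17 to 0.42) and -0.16 for RGD-binding chains (-0.81 to 0.70). Each class held chains on both sides of 0. Leaving out 1 library at a time moved these medians widely. The laminin median reached 0.04 without WT replicate 1, the collagen median lay between -0.87 and -0.44, and the RGD median ranged from -0.76, with replicate 1 of G784E left out, up to 0.44, with its replicate 2 left out. Among the proteoglycans the median was -0.93 over 5 glypicans and 0.08 over 4 syndecans, of which Sdc4 alone passed. The syndecans summed to 113 and 134 CPM in G784E libraries, against 222 and 204 CPM in WT libraries, a ratio of 0.578 beside 0.498 for the glypicans. No difference between classes was tested.

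Per kilobase of exon, a scale on which levels of different genes can be set side by side, Itgb1 was the highest receptor gene in both groups, by its mean, at 56.9 CPM per kb in G784E and 71.7 in WT. In WT replicate 1, however, Sdc4 was above it, at 73.4 against 68.0 CPM per kb. In G784E cells Dag1 came next at 44.2, then Sdc4 at 32.9, Itga5 at 24.3 and Itga6 at 21.9. In WT cells Sdc4 came next at 69.7, then Dag1 at 38.3, Itga6 at 28.1, Gpc4 at 20.2 and Itga5 at 14.9. The order of Itga5 and Itga6 differed between the groups, but in G784E libraries their values overlapped, with Itga5 at 26.97 and 21.6 CPM per kb and Itga6 at 20.0 and 23.8. Of all integrin alpha transcripts per kb, Itga5 made up 39.9% and 33.7% in G784E libraries, against 21.0% and 20.0% in WT libraries. Itga3 made up 9.36% and 10.9% in G784E libraries against 16.1% and 15.8% in WT libraries, and Itgav 9.72% and 10.2% against 16.01% and 15.7% in the same groups. Itga6 held 29.5% and 37.2% in G784E libraries and 36.2% and 40.7% in WT libraries, which overlap. A share rises when other shares fall, so these are not independent of each other.

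The sum of alpha chains was 67.7 and 64.0 CPM per kb in G784E libraries and 67.7 and 78.0 in WT libraries, and that of beta chains 73.3 and 75.9 in G784E libraries and 83.2 and 88.2 in WT libraries. Beta chains thus exceeded alpha chains in all 4 libraries. Among the glypicans Gpc4 held 28.7% and 39.4% of transcripts per kb in G784E libraries, against 45.9% and 52.5% in WT libraries, while Gpc1 held 16.9% and 15.5% in G784E libraries, against 6.32% and 6.90% in WT libraries. Sdc4 made up 76.5% and 76.8% of syndecan transcripts in G784E libraries, against 89.1% and 87.4% in WT libraries. These shares rest on lengths of all annotated exons together, so a gene with many long isoforms, such as Itga1, is set too low.

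**Figure D3:**
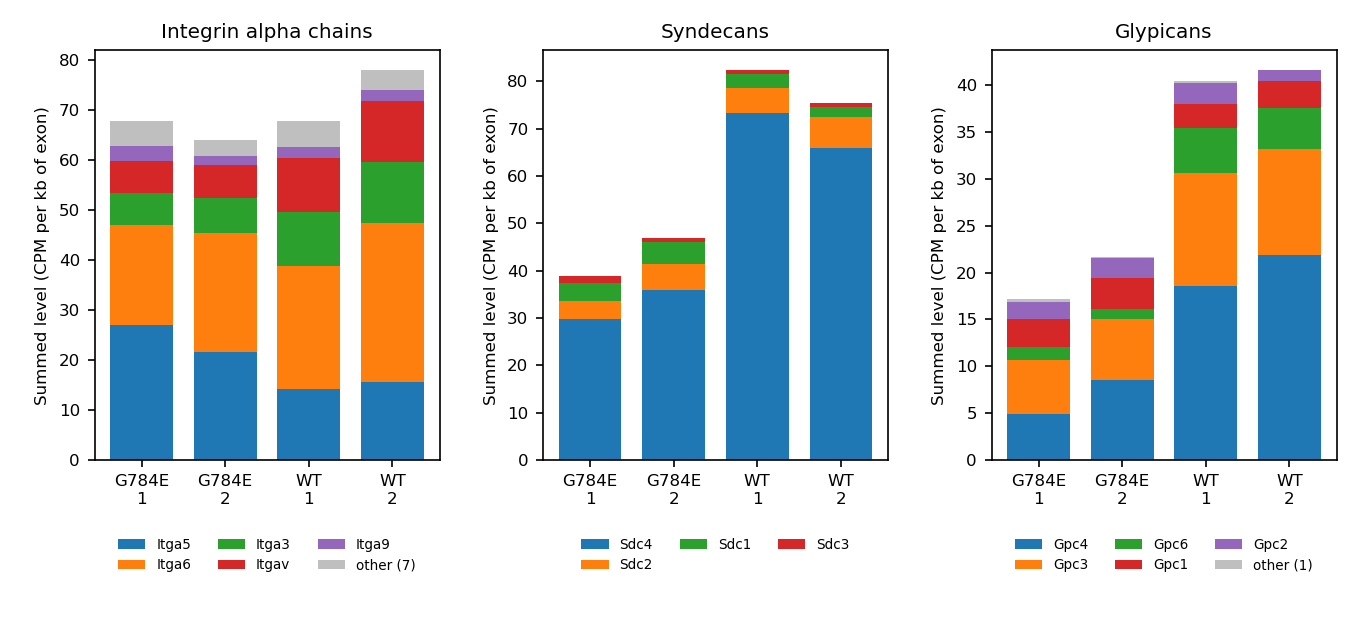
Summed CPM per kb of exon for integrin alpha chains, syndecans and glypicans, stacked by gene, with the G784E libraries left of the WT libraries. In the integrin bars Itga5 takes 39.9% and 33.7% in G784E libraries, and in the syndecan and glypican bars the Sdc4 and Gpc4 blocks are shorter in G784E than in WT.

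To show the sequence before the start of the genes that fell, the 250 bases upstream of the RefSeq start (GRCm38.p6) follow for 5 of them, 5′ to 3′ on the strand of the gene; 25 of the 33 receptor genes had an entry, and Gpc6 had none. Capitals mark matches to a GC box (GGGCGG, the core bound by SP1-type factors) or, in Gpc4 at one place, to the TEAD motif (GGAATG), on either strand, so that they also read CCGCCC or CATTCC. Itga3 (chr11:95076715-95076964, minus strand) has 3 GC boxes, at the upstream one of its listed starts. Itgav (chr2:83724147-83724396, plus strand) has none, Sdc4 (chr2:164443189-164443438, minus strand) has 4, Gpc3 (chrX:52613975-52614224, minus strand) has 3 and Gpc4 (chrX:52164924-52165173, minus strand) has 1.
Itga3: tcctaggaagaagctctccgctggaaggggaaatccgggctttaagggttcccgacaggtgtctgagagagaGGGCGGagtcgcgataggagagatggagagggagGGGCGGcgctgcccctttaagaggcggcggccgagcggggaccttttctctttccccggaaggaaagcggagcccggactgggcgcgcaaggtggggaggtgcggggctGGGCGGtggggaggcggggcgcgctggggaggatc
Itgav: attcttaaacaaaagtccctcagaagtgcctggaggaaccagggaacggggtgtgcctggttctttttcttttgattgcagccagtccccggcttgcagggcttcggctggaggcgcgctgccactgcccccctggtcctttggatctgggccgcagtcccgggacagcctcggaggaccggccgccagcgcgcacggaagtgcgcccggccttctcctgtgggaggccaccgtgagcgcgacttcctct
Sdc4: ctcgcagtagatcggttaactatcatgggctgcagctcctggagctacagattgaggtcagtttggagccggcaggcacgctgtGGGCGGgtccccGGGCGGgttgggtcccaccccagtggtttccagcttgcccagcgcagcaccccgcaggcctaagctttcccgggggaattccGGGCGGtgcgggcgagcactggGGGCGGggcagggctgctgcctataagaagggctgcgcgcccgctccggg
Gpc3: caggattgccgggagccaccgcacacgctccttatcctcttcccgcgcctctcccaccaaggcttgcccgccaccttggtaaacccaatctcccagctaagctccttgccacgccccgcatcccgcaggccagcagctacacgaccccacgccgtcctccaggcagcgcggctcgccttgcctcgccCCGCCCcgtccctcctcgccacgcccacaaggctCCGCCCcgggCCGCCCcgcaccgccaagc
Gpc4: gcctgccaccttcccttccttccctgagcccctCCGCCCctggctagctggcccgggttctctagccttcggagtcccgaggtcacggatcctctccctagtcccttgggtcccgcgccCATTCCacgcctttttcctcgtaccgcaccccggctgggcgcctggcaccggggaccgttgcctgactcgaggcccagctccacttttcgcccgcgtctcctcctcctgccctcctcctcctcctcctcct

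These windows hold 67.6% G and C for Itga3, 64.4% for Itgav, 68% for Sdc4, 71.6% for Gpc3 and 68.4% for Gpc4, against a median of 52.4% over 32851 mouse promoter windows of the same length. A GC box was found in at least 1 window of 14 of the 25 matched receptor genes, some of which have several windows. Of all windows counted singly, 32.7% held a GC box, so genes and windows are not on the same unit here. None of these 5 windows held the TATA box (TATAAA, 12.4% of all windows), the GATA motif (AGATAA or TGATAA, 16.6%) or the AP-1 motif (TGANTCA, 6.75%), and Gpc4 alone of the 5 held the TEAD motif (12.6% of all windows). A match is a description of letters and says nothing of binding.

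Gpc3 and Gpc4 are next to each other on chromosome X, and both fell. Gpc5 and Gpc6 are next to each other on chromosome 14, where only Gpc6 had enough counts to be tested. The tested neighbours of the other genes that fell did not pass the test. Next to Itgav, Zc3h15 was at 73.6 and 86.7 CPM in G784E libraries and 64.8 and 71.7 CPM in WT libraries, and Fam171b at 20.1 and 19.3 CPM in G784E libraries against 6.73 and 11.6 CPM in WT libraries (log2 fold change 1.09, adjusted p = 0.065). Next to Itga3, Pdk2 was at 6.22 and 9.54 CPM in G784E libraries and 10.6 and 9.85 CPM in WT libraries, and Dlx3 at 8.02 and 11.2 CPM in G784E libraries and 3.96 and 4.67 CPM in WT libraries (1.15, adjusted p = 0.239). Fam171b and Dlx3 thus lay on the other side of 0 from Itgav and Itga3. The genes that fell overlap no other protein-coding gene. Itga1 overlaps Pelo, Itga4 Cerkl, Itga7 Mettl7b, Itgb4 Galk1, Gpc1 Ankmy1 and Gpc2 Stag3; whether counting used strand is not given in the sources used here, so reads in those overlaps cannot be told apart.

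The ligands of the receptors were counted from lists of laminin chains, collagen chains and ligands of the RGD-binding integrins. Beside these and the later lists, 1.89% of all tested genes were lower and 0.672% higher at an adjusted p under 0.05 by edgeR. For the counts at an unadjusted p no such share is given. Of 11 laminin chains tested, 4 fell and none rose (5 lower and 0 higher at an unadjusted p under 0.05 by edgeR, 0 higher by DESeq2 and limma-voom). The chains of laminin-111 led: Lama1 was at 157 and 174 CPM in G784E libraries, against 1462 and 1596 CPM in WT libraries, and Lamb1 at 147 and 169 CPM against 747 and 759 CPM (log2 fold changes -3.21 and -2.25). Lamc1, shared by most laminins, was at 1106 and 1174 CPM in G784E libraries, against 2426 and 2499 CPM in WT libraries (-1.11, adjusted p = 0.000853). All of these ligand falls were larger than that of Itga3, the laminin receptor chain that passed, and larger than the unpassed log2 fold change of -0.36 for Itga6.

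Of 17 collagen chains tested, 2 fell and none rose (0 higher at an unadjusted p under 0.05 and by DESeq2 and limma-voom). They were both type IV chains of the basement membrane. Col4a1 was at 63.0 and 56.9 CPM in G784E libraries, against 817 and 847 CPM in WT libraries (log2 fold change -3.80). Col4a2 was at 48.8 and 26.97 CPM in G784E libraries, against 486 and 508 CPM in WT libraries (-3.72). Of 17 ligands of the RGD-binding integrins tested, 2 fell and none rose (1 higher at an unadjusted p under 0.05, 0 by DESeq2 and limma-voom). These were the matricellular proteins Cyr61, at 41.4 and 37.3 CPM in G784E libraries against 111 and 106 CPM in WT libraries, and Ctgf, at 49.4 and 43.1 CPM in G784E libraries against 122 and 126 CPM in WT libraries. They fell by 1.47 and 1.43 on the log2 scale. Both bind integrins through sites other than an RGD motif. Fibronectin (Fn1), which carries the motif, was at 1127 and 1239 CPM in G784E libraries and 1090 and 1188 CPM in WT libraries, which overlap, and osteopontin (Spp1), which carries it too, was at 356 and 351 CPM in G784E libraries and 340 and 323 CPM in WT libraries. Neither passed (log2 fold changes 0.05 and 0.09, adjusted p = 0.999 and 0.986). The medians of the lists were -0.55 for laminin chains, 0.09 for collagen chains and -0.04 for ligands of the RGD-binding integrins.

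Inside the cell, 7 of 41 integrin adaptors and kinases tested fell and none rose (12 lower and 0 higher at an unadjusted p under 0.05 by edgeR, 0 higher by DESeq2 and limma-voom). Over all tested genes 1.89% were lower and 0.672% higher at an adjusted p under 0.05 by edgeR. The 12 at an unadjusted p have no such share beside them, so they cannot be set against a background. Dab2, an endocytic adaptor that takes up integrin beta1 and is abundant in primitive endoderm, was at 19.8 and 23.9 CPM in G784E libraries, against 229 and 240 CPM in WT libraries (log2 fold change -3.41, adjusted p = 3.67e-10, edgeR). Parva, the alpha-parvin that links integrin-linked kinase to actin, was at 5.56 and 7.66 CPM in G784E libraries, against 34.5 and 21.2 CPM in WT libraries (-2.05, adjusted p = 0.000216). Parvb, the beta-parvin, was at 91.8 and 77.5 CPM in G784E libraries, against 170 and 169 CPM in WT libraries (-1.001, adjusted p = 0.00511). Both parvins thus fell, with no overlap of groups. The focal adhesion kinase relative Ptk2b, the tensin Tns4 and zyxin (Zyx) also fell, by 0.90 to 1.44 on the log2 scale. Zyx and Tns4 were lost without either WT replicate, and Ptk2b without WT replicate 2, where 4 of the 41 passed.

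At the membrane, 2 of 12 lateral partners tested fell, the tetraspanin Cd9 and the urokinase receptor Plaur, and none rose (1 higher at an unadjusted p under 0.05 by edgeR, 0 by DESeq2 and limma-voom). Cd9 was at 57.8 and 60.1 CPM in G784E libraries, against 105 and 96.5 CPM in WT libraries (log2 fold change -0.77, adjusted p = 0.0368); its adjusted p was 0.422 without WT replicate 1, 0.139 without WT replicate 2 and 0.0580 with RLE scaling. Plaur was at 7.36 and 10.01 CPM in G784E libraries, against 21.7 and 24.8 CPM in WT libraries (-1.41, adjusted p = 0.00594), with an adjusted p of 0.126 without WT replicate 2.

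Beside dystroglycan, 1 of 13 genes of its complex rose and none fell (2 lower at an unadjusted p under 0.05 by edgeR, 1 by DESeq2 and 1 by limma-voom). Those 2 were Utrn, at 295 and 345 CPM in G784E libraries against 475 and 526 CPM in WT libraries, and Sgce. Neither passed in edgeR (log2 fold changes -0.64 and -1.30, adjusted p = 0.0991 and 0.129). The gene that rose was the syntrophin Sntb2, at 182 and 213 CPM in G784E libraries against 109 and 122 CPM in WT libraries (log2 fold change 0.77, adjusted p = 0.0355, edgeR). Its adjusted p was 0.452 without WT replicate 1, 0.121 without WT replicate 2, 0.0572 with RLE scaling, 0.105 with no filter and 0.0521 without Rn45s. Of 16 enzymes that glycosylate dystroglycan and of 8 syndecan and glypican partners, none passed in either direction. At an unadjusted p under 0.05 edgeR put 0 of the enzymes lower and 1 higher, and 1 of the partners lower and 2 higher, and DESeq2 and limma-voom called 0.

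**Figure D4:**
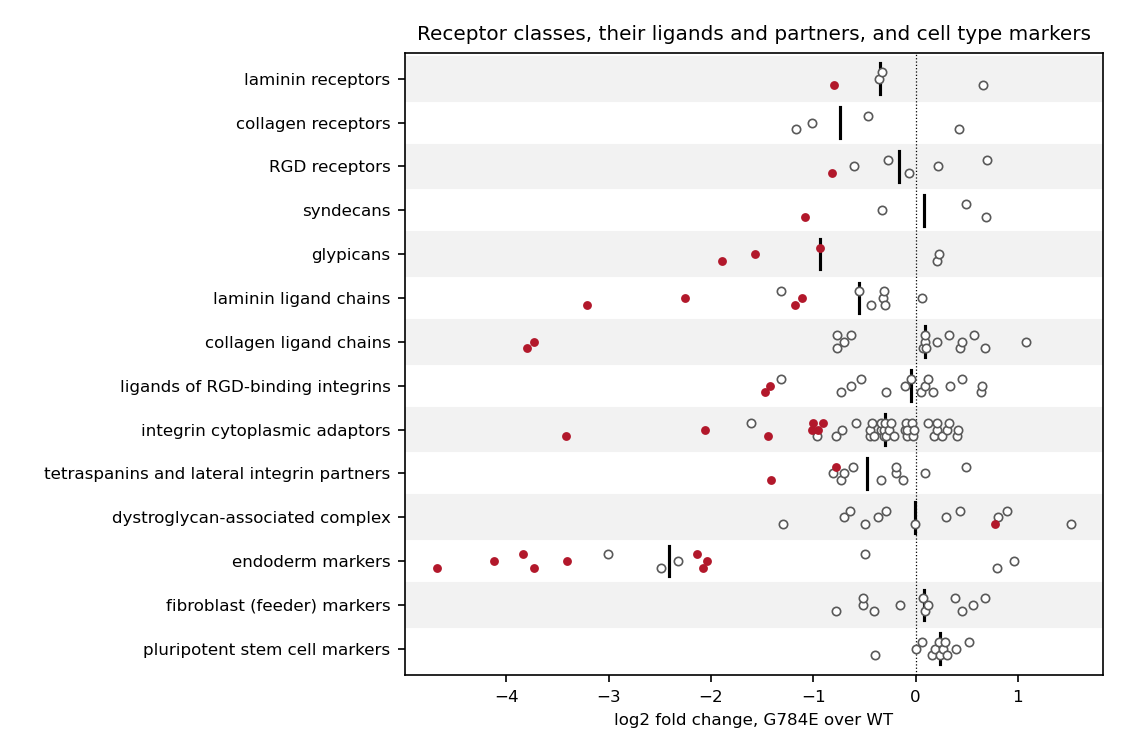
Log2 fold changes of G784E over WT for the tested laminin-, collagen- and RGD-binding integrin chains, syndecans and glypicans. Below them are the ligand lists, the integrin adaptors, the lateral partners, the dystroglycan-associated genes and 3 of the marker lists. Each point is a gene, red points passed the test and bars are medians. The bar of the endoderm markers lies at -2.41, that of the glypicans at -0.93 and that of the pluripotent stem cell markers at 0.23.

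Of the marker lists for other cell types, those of endoderm and of trophoblast and simple epithelium held several falls. In the second of these lists the genes that fell were keratins and Tinagl1 only. The leukocyte list held 1 and the fibroblast list 0. Over all tested genes 1.89% were lower and 0.672% higher at an adjusted p under 0.05 by edgeR. Counts of markers at an unadjusted p have no such share beside them. Of 14 tested endoderm markers, 8 fell and none rose (1 higher at an unadjusted p under 0.05 by edgeR, 0 by DESeq2 and limma-voom). All 17 listed summed to 103 and 89.4 CPM in G784E libraries, against 942 and 1098 CPM in WT libraries. Amn and Apoa1 were at 0 in G784E replicate 2, and no endoderm marker was at 0 in the other 3 libraries. Cubn, the cubilin of visceral endoderm, was at 13.6 and 15.8 CPM in G784E libraries, against 349 and 407 CPM in WT libraries. The endocytic receptor Lrp2 was at 29.9 and 30.4 CPM against 382 and 482 CPM, and the transcription factor Gata6 at 2.29 and 2.59 CPM against 33.1 and 32.4 CPM, in the same groups. Cubn and Lrp2 together held most of the WT sums. The 1 marker higher at an unadjusted p under 0.05 was Apob. It was at 16.9 and 18.8 CPM in G784E libraries, against 9.90 and 8.43 CPM in WT libraries. Apob did not pass (log2 fold change 0.97, adjusted p = 0.108, edgeR). Afp also lay above 0 (0.79), with groups that overlapped. The part of endoderm-like cells in the fall of Gpc6, Gpc4, Gpc3, Sdc4, Itgav, Itga3, Dab2, the laminin chains and type IV collagen was not tested.

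Of 11 trophoblast and simple-epithelium markers tested, 4 fell, the keratins Krt18, Krt19 and Krt8 and the basement membrane protein Tinagl1. The median log2 fold change of the 11 was -1.41. At an unadjusted p under 0.05 edgeR put 4 lower and 1 higher, DESeq2 called 3 lower and limma-voom 4, and both called 0 higher. Krt8 lost its call with upper-quartile scaling (adjusted p = 0.0635), by DESeq2 (0.0701), without G784E replicate 2 (0.0599), without WT replicate 1 (0.143) and without WT replicate 2 (0.387). The trophoblast factor Tfap2c lay the other way, at 32.4 and 30.3 CPM in G784E libraries and 19.7 and 20.2 CPM in WT libraries, and did not pass (log2 fold change 0.65, adjusted p = 0.215, edgeR). The remaining markers did not pass either: Cdx2 (0.13), Gata3 (-0.86), Elf5 (-1.73), Plac1 (-0.36), Ascl2 (-1.41) and Krt7 (-1.26). The list summed to 71.7 and 71.1 CPM in G784E libraries, against 158 and 143 CPM in WT libraries. The leukocyte markers, relevant to Itgb2, Itgb7 and Itga4, summed to 54.3 and 55.2 CPM in G784E libraries and to 102 and 122 CPM in WT libraries. Laptm5 alone held 39.3 and 43.9 CPM of the sum in G784E libraries and 73.6 and 107 CPM in WT libraries. Of 5 tested, Laptm5 fell (log2 fold change -1.12, adjusted p = 0.00437), but not once WT replicate 2 was left out (-0.82, adjusted p = 0.195), and Ptprc and Coro1a did not pass (-0.04 and 0.33). Fcer1g was at 0 in G784E replicate 1, Cd52, Tyrobp and Rac2 in G784E replicate 2, and Cd52 in WT replicate 2. Fibroblast markers, which would mark feeder cells, summed to 164 and 148 CPM in G784E libraries and to 162 and 128 CPM in WT libraries. None of 12 tested passed, and 0 did at an unadjusted p under 0.05 by edgeR or by DESeq2 and limma-voom. The pluripotent stem cell markers gave 0 of 12 calls (0 lower and 1 higher at an unadjusted p under 0.05, 0 by DESeq2 and limma-voom). The part of cells with trophoblast, epithelial or leukocyte markers in the receptor values was not tested.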

How the data were processed

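Poly(A)-selected RNA from 4 mouse embryonic stem cell libraries was read as raw counts per gene symbol. For the deposited counts the submitters' processing notes name CASAVA 1.8.2, Bowtie2 2.1.0, HTSeq, DESeq2 and build mm9. Which annotation, counting mode and strand setting the authors used was not given in the sources used here. HTSeq summary rows, 83.3% to 88.7% of all counts in a file, were left out. Reads not placed uniquely made up 55.4% to 61.8%, which limits genes with near-identical copies, and Rn45s took 10.02% to 15.98% of gene counts.

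The groups were compared in edgeR 4.0.16 (R 4.3.3), with TMM scaling, genes kept by a minimum count of 10 and total of 15, a quasi-likelihood test on group alone, and Benjamini-Hochberg adjustment over 15763 genes at 0.05. Residual degrees of freedom were 2 and the common biological coefficient of variation was 0.317. A floor of 3 counts is 0.305 to 0.491 CPM, for counting error only. Fold changes are fitted log2 ratios. Levels per kb used GENCODE M21 union exon lengths. Alternative runs used DESeq2 1.42.0, limma-voom 3.58.1, upper-quartile or RLE scaling, a replicate block, no filter or one of 1 CPM in 2 libraries and a total of 50, and removed Rn45s or 1 library at a time. The scripts were tested on simulated data.

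The genes, classes and lists were chosen with earlier results of these data known. Receptor genes past the threshold or with a mean of at least 5 CPM were to be named, and up to 3 genes per list in each direction; neighbouring genes, and genes named to complete a count, were chosen after their values were seen. The promoter motifs were chosen after the values were seen too. Some genes that enter the counts over lists are not reported here by name.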

Additional observations from a re-analysis of the deposited data

How the results depend on the processing

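Under 12 alternatives Sdc4, Gpc4 and Gpc6 passed as lower every time, with adjusted p-values up to 0.0298, 0.00267 and 0.00323, while Itgav passed in 10, Itga3 in 8, Gpc3 in 7 and Itga1 in 2. Leaving out 1 library gave 3 to 6 receptor genes lower and 0 to 1 higher. RLE scaling left 4 lower, without Itga3 and Gpc3. Upper-quartile scaling, DESeq2, limma-voom and the replicate block each gave 1 higher, Itga5. Over all genes, leaving out 1 library gave 156 to 532 lower and 29 to 307 higher, and limma-voom gave 186 higher. With the replicate block 658 were lower and 546 higher, and Itga1 passed (-1.17, adjusted p = 0.0258), as did Itga5 (0.69, adjusted p = 0.0021). Same-numbered libraries deviated together (r = 0.476 over genes). In both groups replicate 1 had fewer gene counts than replicate 2. It also had more summary rows, 88.3% in G784E and 88.7% in WT, against 83.8% and 83.3% in replicate 2. There are only 2 pairs, and the labels give them only a number in common.

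Leaving out 1 library gave 4 to 8 adaptors lower, 0 to 2 lateral partners lower, 0 to 1 dystroglycan-associated genes higher and 0 to 2 leukocyte markers lower. It put class medians at -0.44 to 0.042 for laminin, -0.87 to -0.44 for collagen, -0.76 to 0.44 for RGD chains and -0.015 to 0.16 for syndecans. The collagen median was -0.83 with the replicate block, and the syndecan median 0.042 without a filter, 0.034 by limma-voom and 0.048 without Rn45s. Signs turned only in genes that never passed, apart from Itgb3: Itga7 by limma-voom (0.058) and, over single libraries left out, Itga4 (-0.15 to 1.83), Itga7 (-1.02 to 0.97), Itga8 (-0.72 to 0.62), Itga9 (-0.073 to 0.53), Itga10 (-0.063 to 0.94), Itgb2 (-2.79 to 0.79), Itgb3 (-2.32 to 0.22), Itgb6 (-2.04 to 0.55), Gpc2 (-0.18 to 0.78) and Ddr2 (-0.15 to 0.74). Causes were not tested. In genes under 5 CPM, 1 count is worth 0.102 to 0.164 CPM.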
